A study of Mus musculus with 2 samples.

Results

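Dam-marked peaks, as they are called here, are Dnmt1 peaks with a raised signal from Dam alone. They were selected on both deposited heights, a Dam-only height of 3 or more and a Dnmt1-Dam height under 20, and numbered 898 of the 8226 deposited peaks (10.9%). The lowest Dam-only height of any deposited peak is 1, so peaks outside this selection are not known to be free of Dam signal. DNA adenine methyltransferase identification (DamID) records where a protein has touched the genome: the protein is joined to Dam, an enzyme from bacteria that methylates adenine in the sequence GATC. Dam without a partner methylates GATC wherever the DNA is open to it, so its signal is a map of accessible DNA and the background of the method. Dnmt1 copies CpG methylation to the new strand after replication, and in cleavage-stage embryos some retroelements are among the sequences that stay methylated.

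Zygotes came from BCF1 females, the C57BL/6 x CBA/CA cross, which were 5 weeks old and superovulated; the labels do not give the strain of the males. They were injected with either Dnmt1-V5-Dam or Dam alone, grown in culture and pooled as 50 embryos per construct at the 4- to 8-cell stage. Each construct gave 1 library, so no value has a replicate check and no p-value was computed. Heights are the authors' signal values at each peak, in mm9 coordinates; no source used here gives the reads per library, so depth is unknown. Intervals in brackets are 95% exact binomial intervals over peaks and cover counting error only.

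Both heights chose these peaks, so they are a description and no finding. The Dnmt1-Dam height ran from 9 to 19 with a median of 11 (interquartile range 10 to 14), and the Dam-only height from 3 to 9 with a median of 3. A Dam-only height of 3 was found at 478 peaks, 4 at 230, 5 at 116, 6 at 55, 7 at 13, 8 at 4 and 9 at 2. Every deposited peak has a Dnmt1-Dam height at least 6 above the Dam-only height, and 287 of the 898 (32.0%) lay on that floor. The lowest ratio of heights among all 8226 deposited peaks is 2. With a Dnmt1-Dam height under 20, a Dam-only height above 9 would need a lower ratio. The ratio of heights of the 898 had a median of 3 and reached 4 or more at 181 (20.2%), against 91.1% of all peaks. Just outside the rule were 641 peaks with a Dam-only height of 2 and a Dnmt1-Dam height from 9 to 19. A further 66 had a Dam-only height of 3 or more and a Dnmt1-Dam height from 20 to 62.

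**Figure D1:**
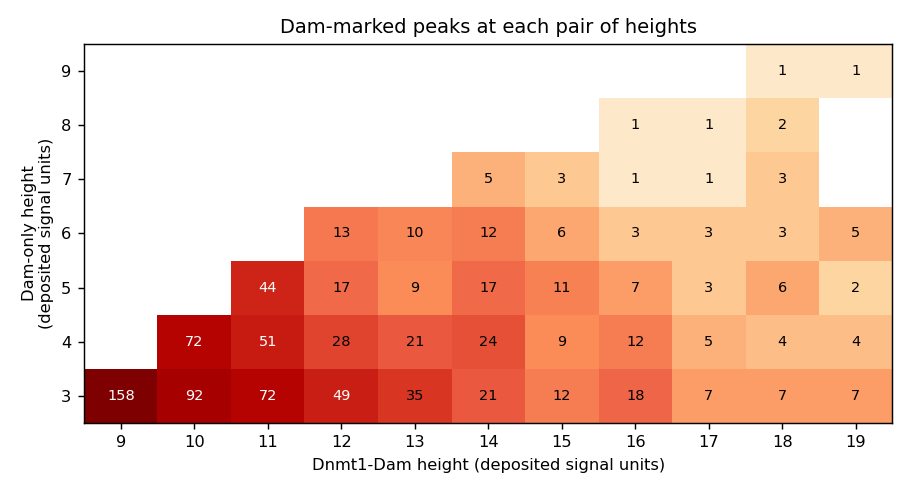
Number of Dam-marked peaks at each pair of heights, with the Dnmt1-Dam height on the horizontal axis and the Dam-only height on the vertical axis, both in the deposited signal units. The corner at 9 against 3 holds 158 peaks, and the empty upper left is the part of the plane where no peak is listed.

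Of these peaks, 2 lay within 250 bases upstream of a start site, where the promoter sequence can be searched for GATC. Mtmr6, which encodes a myotubularin-related lipid phosphatase, had a peak of 15 against 6 at -174 bp from the start given in the deposited table (chromosome 14, 60883891, mm9). Ptpn23, a phosphatase gene of endosomal sorting, had one of 16 against 3 at -197 bp (chromosome 9, 110310911). The peak of Gnb5, a G protein subunit gene, at -81 bp (chromosome 9, 75159121) is shown beside them. It is the one in such a window with a Dam-only height of 1 and a Dnmt1-Dam height of 9 to 19 (10 against 1). The 250 bases before each start are from RefSeq, build GRCm38.p6, 5′ to 3′ on the gene's strand, with each GATC in capitals. GATC reads the same on both strands.
Mtmr6 (chr14:60264955-60265204, plus strand): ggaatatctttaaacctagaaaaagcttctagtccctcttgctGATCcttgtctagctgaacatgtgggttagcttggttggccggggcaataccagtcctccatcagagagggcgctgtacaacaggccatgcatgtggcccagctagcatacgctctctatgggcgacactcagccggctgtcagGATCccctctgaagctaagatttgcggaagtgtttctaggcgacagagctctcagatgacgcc
Ptpn23 (chr9:110408211-110408460, minus strand): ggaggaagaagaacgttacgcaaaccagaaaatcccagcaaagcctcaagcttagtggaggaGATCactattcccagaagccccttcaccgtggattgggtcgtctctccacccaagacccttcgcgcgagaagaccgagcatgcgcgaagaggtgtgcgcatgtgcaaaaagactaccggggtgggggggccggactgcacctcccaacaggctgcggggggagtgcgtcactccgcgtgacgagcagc
Gnb5 (chr9:75306038-75306287, plus strand): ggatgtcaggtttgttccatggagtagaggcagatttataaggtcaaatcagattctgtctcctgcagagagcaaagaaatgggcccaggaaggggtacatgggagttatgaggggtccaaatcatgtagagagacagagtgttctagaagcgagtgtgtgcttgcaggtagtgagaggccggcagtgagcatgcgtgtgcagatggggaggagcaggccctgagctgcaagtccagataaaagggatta
GATC stood at -207 and -63 in the Mtmr6 window and at -188 in the Ptpn23 window, and the Gnb5 window held none. Of all 32851 windows of this length in the RefSeq table, 13763 (41.9%) hold a GATC. The match describes the window only, and since peak positions are in mm9 their place in it is approximate. Both constructs carry Dam and methylate GATC, and the Gnb5 peak had a Dnmt1-Dam height of 10 with no GATC in its window. The windows therefore cannot show why a Dam-only height was low or high.

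Gene bodies, intergenic DNA and proximal promoters held shares of the Dam-marked peaks that did not differ from those of other peaks by more than counting error. The comparison set was the 2594 peaks with a Dam-only height of 1 and a Dnmt1-Dam height of 9 to 19, reweighted height by height to the Dam-marked distribution. Intergenic DNA held 445 of the 898 Dam-marked peaks (49.6%, 46.2 to 52.9), against 50.5% of matched peaks (48.4 to 52.6). Gene bodies held 380 (42.3%, 39.1 to 45.6) against 43.0% (40.9 to 45.0). Proximal promoters, which reach 3 kb before and 1 kb past the start, held 24 (2.67%, 1.72 to 3.95) against 2.81% (2.17 to 3.58). The interval of the difference contained 0 for each of these, and for proximal promoters it ran from -1.36 to 1.29 percentage points.

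Distal promoters, from 10 to 3 kb upstream, held more of the Dam-marked peaks. There were 49 (5.46%, 4.06 to 7.15) where matching gave 33.4 (3.72%, 2.97 to 4.58), a difference of 1.74 points (0.10 to 3.59). The 641 peaks just outside the rule, at a Dam-only height of 2, had a distal promoter share near that of the Dam-marked peaks, with 33 (5.15%, 3.57 to 7.15). They were not reweighted, and the interval contains the matched share as well. At Dnmt1-Dam heights of 14 to 19, distal promoters held 24 of 227 Dam-marked peaks (10.6%, 6.89 to 15.3) and 16 of 404 at a Dam-only height of 1 (3.96%, 2.28 to 6.35). At heights of 9 to 13 the shares were 3.73% (25 of 671) and 3.65% (80 of 2190). The bands were chosen after the data had been seen and split on a height that the rule used, and the difference between them was not tested. In all, 22 features, some of them overlapping, were compared without adjustment, and the interval excluded 0 for 5. The distal promoter difference included 0 with a Dam-only minimum of 4 (1.97, -0.323 to 4.78) or 5 (2.82, -0.620 to 7.53), and with no upper limit on the Dnmt1-Dam height (1.48, -0.127 to 3.27).

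The distal promoter peaks with the highest Dam-only height were at genes of varied function. Gltp, a glycolipid transfer protein gene, had 18 against 6 at -6.86 kb, in a SINE. Nlk, a kinase gene of Wnt and Notch signaling, had 12 against 6 at -7.02 kb, also in SINE sequence, which is a ratio of 2. At Ahdc1 the heights were 14 against 6 at -9.45 kb. Further down the order of Dam-only heights came the proteasome subunit gene Psma3 (14 against 5, -9.61 kb), the cyclin gene Ccnt1 (17 against 4, -3.31 kb) and the kinase gene Pim1 (14 against 4, -5.22 kb). The interferon receptor gene Ifnar2 had 13 against 3 at -5.92 kb. These distal promoter genes were chosen after their values were seen.

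**Figure D2:**
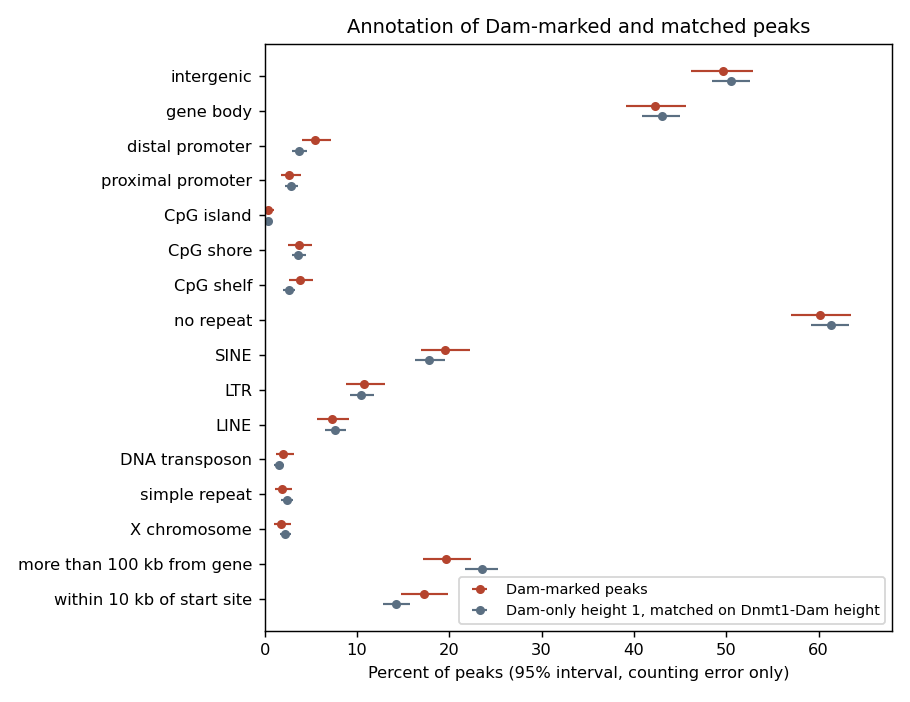
Share of Dam-marked peaks (red) and of height-matched peaks at a Dam-only height of 1 (gray-blue) with each annotation, in percent with 95% intervals. The pairs of points overlap in most rows; distal promoters stood at 5.46% against 3.72%, peaks within 10 kb of a start site at 17.3% against 14.2%, and peaks more than 100 kb from the gene at 19.6% against 23.5%.

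Along the axis of distance, Dam-marked peaks lay closer to the start site of their assigned gene, and fewer lay more than 100 kb outside it. The median distance to the start site was 47.6 kb (41.2 to 53.3), against 60.6 kb (56.0 to 65.8) for matched peaks. Within 10 kb of a start site, on either side, lay 155 (17.3%, 14.8 to 19.9) against 14.2% (12.8 to 15.7), a difference of 3.05 points (0.194 to 6.04). The 155 include the 49 distal promoter peaks, so this difference is not separate from that of distal promoters. More than 100 kb outside the gene lay 176 (19.6%, 17.1 to 22.3) against 23.5% (21.7 to 25.3), a difference of -3.89 points (-7.01 to -0.634). More than 10 kb outside the gene lay 45.5% against 47.5%, and that difference of -1.93 points (-5.83 to 1.99) includes 0. Of the 641 peaks at a Dam-only height of 2, not reweighted, 104 (16.2%, 13.5 to 19.3) lay within 10 kb of a start site. That interval contains both the Dam-marked and the matched share. More than 100 kb outside the gene lay 116 of them (18.1%, 15.2 to 21.3), an interval that contains the Dam-marked share and not the matched one. The difference for 100 kb excluded 0 under every alternative run. The difference within 10 kb of a start site, a feature added after the table was opened, included 0 with a Dam-only minimum of 4 or 5 and with no upper limit. Upstream of the start site lay 36.4% of Dam-marked and 36.0% of matched peaks.

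**Figure D3:**
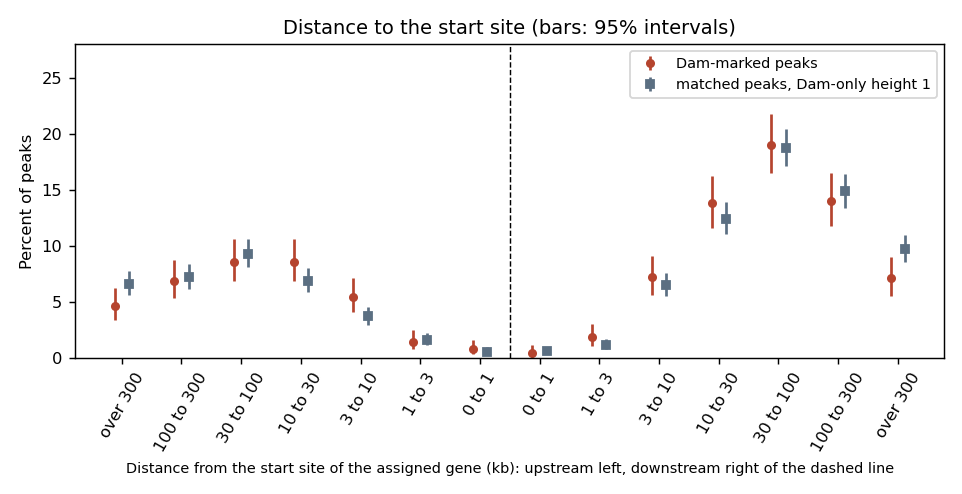
Percent of Dam-marked (red circles) and height-matched peaks (gray-blue squares) in each class of distance, in kb, from the start site of the assigned gene, upstream to the left and downstream to the right of the dashed line, with 95% intervals. Upstream from 3 to 10 kb the points stand at 5.46% and 3.72%, and beyond 300 kb at 4.68% and 6.61% upstream and 7.13% and 9.73% downstream.

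Their genes were also shorter. Counted once per peak, the assigned gene had a median length of 50.9 kb (43.9 to 58.1) for Dam-marked peaks and 63.6 kb (59.0 to 68.9) for matched peaks. Without reweighting, over Dnmt1-Dam heights of 9 to 19, the median length was 64.2 kb at a Dam-only height of 1. It was 55.9 kb at 2, 57.4 kb at 3, 47.0 kb at 4 and 40.9 kb (34.1 to 56.0) at 5 or more. The intervals of neighboring Dam-only heights overlap. Dnmt1-Dam heights were not equal across these classes, with a median of 10 at a Dam-only height of 3 and 12 at 5. Split by place, the lengths were 93.9 kb (81.7 to 111) against 111 kb (103 to 116) for gene body peaks, and 30.8 kb (25.4 to 38.0) against 33.2 kb (29.4 to 39.0) for peaks outside a gene body, so within either class the intervals overlap.

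CpG islands are the unmethylated, GC-rich stretches at many promoters, and few Dam-marked peaks lay in one. There were 3 (0.334%, 0.0689 to 0.973) against 0.402% of matched peaks (0.184 to 0.761). Acss2, an acetyl-CoA synthetase gene, had 11 against 3 in its gene body, Sfr1, a recombination factor gene, 9 against 3 at 31.2 kb, and Fabp3, a fatty acid binding protein gene, 9 against 3 at -0.711 kb. Island shores held 33 (3.67%) against 3.66%. Island shelves held 34 (3.79%, 2.64 to 5.25) against 2.59% (1.97 to 3.33), a difference whose interval, -0.170 to 2.79 points, contains 0 and whose sign turned with a Dam-only minimum of 4 (-0.334, -1.81 to 1.69) or 5 (-0.625, -2.29 to 2.45).

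Retroelements were named at 325 Dam-marked peaks (36.2%, 33.0 to 39.4) and at 34.8% (32.8 to 36.8) of matched ones. SINEs, short elements copied by the LINE machinery, were named at 175 (19.5%, 16.9 to 22.2) against 17.8% (16.3 to 19.5), and the difference of 1.65 points had an interval of -1.38 to 4.81. LTR elements, relatives of retroviruses, were named at 97 (10.8%, 8.85 to 13) against 10.4% (9.19 to 11.8). LINEs, which encode their own reverse transcriptase, were named at 65 (7.24%, 5.63 to 9.13) against 7.60% (6.54 to 8.77). No repeat was named at 541 (60.2%, 57.0 to 63.5) against 61.3% (59.2 to 63.3). None of these differences had an interval that excludes 0, and the intervals leave room for 4.81 points in SINEs and 2.92 in LTR elements.

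Within each location class the SINE share of Dam-marked and matched peaks did not differ by more than counting error. It was 18.7% (15.1 to 22.6) of intergenic Dam-marked peaks against 14.8% (12.8 to 17.0) of matched ones, and 17.9% (14.2 to 22.1) of gene body peaks against 21.2% (18.7 to 24.0). In distal promoters SINEs were named at 18 of 49 (36.7%, 23.4 to 51.7) against 18.4% (8.50 to 32.6). All 3 intervals of the difference contain 0, and the one for distal promoters ran from -1.10 to 36.3 points.

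In repeats the Dam-only height reached 9 in a SINE and in an LTR element, the highest possible under the rule at a ratio of 2 or more. Rab3b, a GTPase gene of vesicle release, had a SINE peak of 18 against 9 inside the gene (chromosome 4, 108589341), a ratio of 2. Psap, which encodes the precursor of the saposins, had one of 18 against 8 at -40.1 kb, in the shore of an island. In LTR sequence, 24.5 kb downstream of the start of the ubiquitin ligase gene Nhlrc1 (chromosome 13, 47085701), the heights were 19 against 9. The LINE peaks reached 14 against 6 at Sdr39u1 and 13 against 6 at Krtap5-2, a keratin-associated protein gene, both in distal promoters. The LINE peak at -33.7 kb from the growth factor gene Fgf20 had 16 against 5. Other LTR peaks were at 1700017B05Rik (15 against 7, -56.4 kb) and inside Sobp (17 against 6).

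The other Dam-only heights of 7 or 8 were found at genes of several cell functions. With no repeat named, Hhatl had 17 against 8 inside the gene, and Fam43a 18 against 8 at 8.61 kb from its start. Stim2, the calcium sensor of the endoplasmic reticulum, had 16 against 8 in a SINE at 206 kb. Of the next in order, Rnf41, a ubiquitin ligase gene, had 18 against 7 inside the gene, as had the membrane adaptor gene Ank2 with 17 against 7, while Cog6, a Golgi tether gene, had 18 against 7 at 213 kb. At Aym1 the heights were 18 against 7, at 42.9 kb. A ratio of 2, the lowest of any deposited peak, was shared by 20 Dam-marked peaks. Among them were Rab3b, Stim2 and the SINE peak at -20.0 kb from the ornithine decarboxylase gene Odc1 (14 against 7).

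Proximal promoter peaks had Dam-only heights from 3 to 7. Galc, the lysosomal galactosylceramidase gene, led with 14 against 7 at -2.77 kb. Dnajb9, a co-chaperone gene of the endoplasmic reticulum, had 16 against 6 at -2.61 kb in an LTR element. Timm8b, a mitochondrial import gene, had 15 against 5 at 0.395 kb, and Pemt, a phospholipid methyltransferase gene, 12 against 5 at -0.440 kb. The olfactory receptor gene Olfr1208 had 11 against 5, the elastin gene Eln 15 against 4 in a SINE, and Cyb5r4 14 against 4. Hilpda, a lipid droplet gene, had 12 against 4, Sytl1 11 against 4, and Iqgap3 and the steroid reductase gene Akr1d1 10 against 4 each. Of the 24 peaks, 10 had a Dam-only height of 3, that at Ptpn23 among them.

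Close neighbors differed in Dam-only height by their order along the chromosome. In the whole table, 448 pairs of adjacent peaks lay no more than 200 bp apart. The peak of lower coordinate had a Dam-only height of 3 or more in 74 pairs (16.5%, 13.2 to 20.3), and the peak of higher coordinate in 3 (0.670%, 0.138 to 1.94). A height of 1 stood at 438 of the 448 higher-coordinate peaks (97.8%) and at 307 of the lower (68.5%). The Dnmt1-Dam height had a median of 10 on both sides. Single peaks, with none within 1 kb, had a Dam-only height of 3 or more in 12.1% (11.4 to 12.9), and among the 61 pairs from 200 bp to 1 kb apart the lower and higher sides stood at 8.20% and 11.5%, with overlapping intervals.

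The peak at Rnf41 of 18 against 7 was followed 150 bp on by one of 23 against 1. That at Grin2a, a glutamate receptor gene, of 16 against 7 was followed after 80 bp by 9 against 1. For Ltbp2 the pair was 14 against 7 and, 130 bp on, 10 against 1, and for Ldb3, a muscle Z-disc gene, 14 against 7 and 10 against 1 at the same spacing. In each of these pairs a Dnmt1-Dam height of 9 or more stood at the next position beside a listed Dam-only height of 1. What a Dam-only height of 1 stands for is not stated in the sources used here, although it defines the comparison set, and whether the order in close pairs came from how the table was made was not tested. The order bears on which peaks the rule selects. The pairs named here were chosen after their values were seen.

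**Figure D4:**
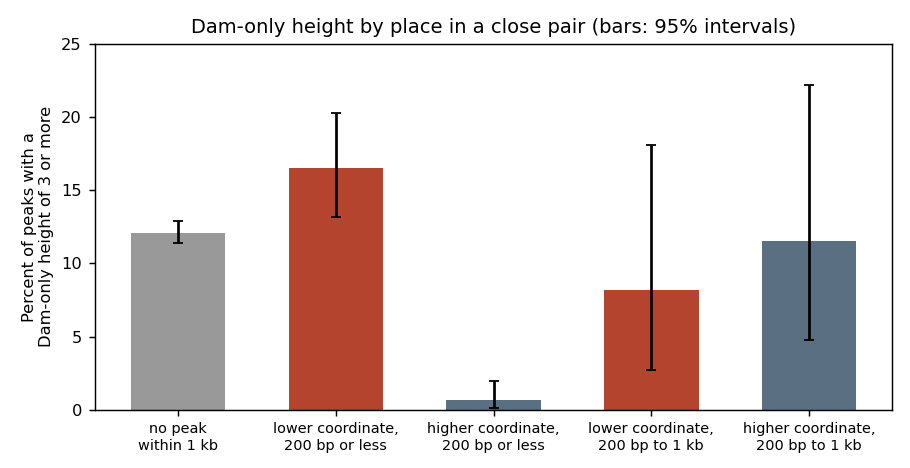
Percent of peaks with a Dam-only height of 3 or more (bars, with 95% intervals) among single peaks and among the lower- and higher-coordinate members of pairs no more than 200 bp apart or from 200 bp to 1 kb apart. The lower-coordinate peaks of the closest pairs stand at 16.5% and the higher-coordinate ones at 0.670%.

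Fewer Dam-marked peaks than matched ones had a close neighbor. A second peak within 1 kb was listed for 79 Dam-marked peaks (8.80%, 7.03 to 10.8) against 19.4% (17.8 to 21.1) of matched peaks. The difference was -10.6 points (-13.1 to -8.01). The low share was not particular to Dam-marked peaks. Of the 641 peaks at a Dam-only height of 2, not reweighted, 55 (8.58%) had such a neighbor. The interval of that share contains the Dam-marked share and not the matched one. Over all deposited peaks the share was 11.9%. Without matching, against all peaks at a Dam-only height of 1, the difference was -4.17 points (-6.14 to -1.96). Of the 79, 70 had their neighbor at higher coordinate only, while 254 of the 459 comparison peaks with a neighbor had it at lower coordinate only. Keeping the lowest-coordinate peak of each 1 kb run, an alternative chosen after seeing the data, the shares were 7.87% and 8.59%, and the difference of -0.719 points had an interval of -2.87 to 1.59. That setting removes every peak with a neighbor at lower coordinate, so by construction it takes neighbors mostly from the comparison set, and the lost difference is no separate evidence. Distal promoters (1.74 points, 0.0404 to 3.63), peaks more than 100 kb from the gene (-3.72, -6.93 to -0.383) and peaks within 10 kb of a start site (3.30, 0.365 to 6.36) kept their direction and an interval without 0 under that setting. A neighbor within 1 kb that itself had a Dam-only height of 3 or more was listed for 5 Dam-marked peaks (0.557%) against 2.03% of matched ones, and under the same setting, which fixes this count in the same way, the difference was 0.165 points (-0.148 to 0.753). The 898 peaks fell in 896 runs, of which 2 held more than 1 of them.

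Of the 4036 autosomal peaks with a Dnmt1-Dam height of 9 to 19, 881 (21.8%, 20.6 to 23.1) were Dam-marked. Chromosome 3 had the highest autosomal share, 67 of 232 (28.9%, 23.1 to 35.2), against 22.0% expected from its Dnmt1-Dam heights. Chromosome 19 had the lowest, 16 of 110 (14.5%, 8.55 to 22.5), an interval that contains its expected 22.2%. The interval contained the expected share on 18 of 19 autosomes, and the intervals were not adjusted for the number of chromosomes compared. On the X chromosome 16 of 96 were Dam-marked (16.7%, 9.84 to 25.6), against 21.5% expected; these included peaks at Pola1, a DNA polymerase gene (13 against 5, gene body), and at 46.3 kb from the start of the ephrin gene Efnb1 (14 against 6).

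**Figure D5:**
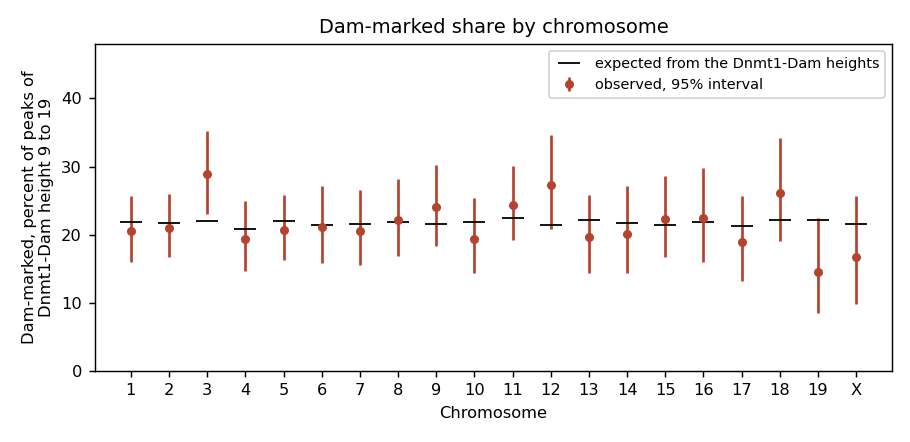
Percent of the peaks of Dnmt1-Dam height 9 to 19 that were Dam-marked on each chromosome (red points with 95% intervals), beside the percent expected from the heights (black dashes). Chromosome 3, at 28.9%, is the one whose interval lies above its dash, without adjustment for the number of chromosomes.

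The Dam-marked peaks were assigned to 835 of the 4841 genes with any deposited peak, and of the 835, 779 had 1, 49 had 2 and 7 had 3. No expected number of such genes was computed. Counting every deposited peak, the 7 had 8 at Cdh13, 6 each at Cobl, Dhx35, Celf4 and Epha4, 5 at Galc and 4 at Tom1l2. Of the 7, Cdh13 and Tom1l2 had all 3 inside the gene. Cdh13, which encodes a cadherin without a cytoplasmic tail (chromosome 8, 120807655 to 121847348), had 14 against 4, 12 against 3 and 16 against 4, spread over 254 to 896 kb from its start. At Tom1l2, an endosomal sorting gene, the heights were 10 against 3, 9 against 3 and 11 against 4, within 64.8 to 52.1 kb of the start and in the shelf and shore of an island. Cobl, an actin nucleator gene, had 1 of 3 inside (11 against 4). Epha4, an ephrin receptor gene, had 10 against 3 at 332 and 313 kb and 13 against 3 at 243 kb. Its peaks outside the rule include 20 against 6 at 629 kb, just above the upper limit, and 10 against 1 at 332 kb. The helicase gene Dhx35 (16 against 4, 12 against 5 and 14 against 3) and Galc had none inside the gene, and neither had Celf4, a neuronal RNA-binding protein gene named Brunol4 in the file. The Celf4 peaks lay from 194 to 1320 kb upstream of its start.

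Gene lists gave small counts, set here beside the number that matched peaks would give. Genes of the 2-cell stage had 2 Dam-marked peaks (0.382 by matching), both in LTR sequence: Dppa4, 14 against 4 at -867 kb, and Pramel6, 9 against 3 at 4.36 kb. Pluripotency and lineage genes had 3 (5.12), at Klf5, a blastocyst factor (19 against 4, inside the gene at 1.35 kb), Hand1, a trophoblast factor (14 against 6, -30.6 kb) and Nr5a2 (11 against 3, -320 kb). Imprinted genes had 3 (2.63). They were 16 against 5 at -64.8 kb from Ppp1r9a, 12 against 4 inside that gene, and 11 against 3 at 24.0 kb from Ascl2, a placental factor gene. Germline and piRNA genes had 3 (0.701). They were at Rnf17 (17 against 5, in a SINE at -11.1 kb), Dazl, needed for germ cell development (17 against 3, -81.5 kb), and Mov10l1, a piRNA helicase gene (9 against 3, inside the gene). For all lists the interval of the difference contained 0, so no list differed from matched peaks by more than counting error.

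No Dam-marked peak was assigned to genes of DNA methylation and silencing, maternal and oocyte genes, housekeeping genes, ribosomal protein genes or histone genes, where matching gave 1.71, 1.59, 0.301, 3.02 and 0.191. A count of 0 of 898 allows a share of up to 0.410% by the exact interval. Long neuronal genes of adhesion and synapses had 16 peaks in 11 genes (19 by matching). The teneurin gene Tenm2 led in Dam-only height, with 12 against 6 inside the gene and 11 against 5 at -308 kb, out of 17 deposited peaks at this gene. Cadherins and protocadherins had 11 in 8 genes (5.20), among them Cdh23, a hair cell cadherin gene (13 against 6, inside the gene), and Cdh4 (12 against 6, -69.4 kb); the difference of 0.646 points had an interval of -0.0900 to 1.64. Cdh13 and Cdh18 are in both of these lists.

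Solute carriers had 19 (17.1 by matching), the highest in Dam-only height being Slc16a9 (15 against 6, 46.0 kb outside the gene), Slc8a1 (14 against 6) and Slc8a3 (12 against 6). The latter pair are sodium-calcium exchanger genes, with the peaks inside them. Zfp genes had 11 (12.7), led by Zfp521, a transcription cofactor gene (13 against 6, 257 kb outside the gene). Zfp36l2 (118 kb outside the gene) and Zfp385b (inside the gene) had 13 against 4 each. Sox, Fox, Pax, Tbx and Hox genes had 5 (10.4), with Sox4 at 11 against 5, Foxb2 at 11 against 4 and Foxo1 at 10 against 4. These peaks lay outside the assigned genes, by 240 kb for Sox4, 56.5 kb for Foxb2 and 213 kb for Foxo1. Ion channel genes had 6 (8.32), led by the potassium channel genes Kcnmb2 and Kcnn3 at 11 against 5 each. Olfactory and vomeronasal receptor genes had 5 (4.28), with Olfr270 at 15 against 6 and Vmn2r56 at 15 against 5, both in distal promoters.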

How the data were processed

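The submitters' processing notes name CASAVA, BWA and build mm9; no source used here names the peak caller or its thresholds. The authors deposited 1 signal height per library at each peak, as whole numbers, and whether these are scaled is not stated, so they were not treated as read counts. Positions, repeat classes, island context and genes are the authors' deposited annotation. Gene symbols were matched to RefSeq (GRCm38.p6) for 4883 of 4903 accessions. Dam-marked peaks were compared with peaks at a Dam-only height of 1, reweighted to the same Dnmt1-Dam heights (effective number 2250). Shares have Clopper-Pearson intervals, on the effective number for matched peaks; differences combine both intervals by the square-and-add rule, and medians have order-statistic intervals. Peaks are not independent, and 1 library per group allows no test across samples. Matching was tested on simulated data in which each peak was drawn independently, so that test does not cover dependence between peaks. Alternatives changed the height limits, the matching, the chromosomes, the repeat classes and the peaks kept per 1 kb run. Tools were Python 3.11.15, numpy 2.4.6, scipy 1.17.1 and pandas 2.3.3.

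Named peaks were the 10 highest by Dam-only height, the 12 highest in proximal promoters, those in islands, the 3 lowest ratios, the 3 highest per retroelement class and gene list, and the genes with the most Dam-marked peaks. Of the items this rule takes, some are given by count or height only. The members and lists were chosen with earlier results of these data known. The ribosomal protein pattern was narrowed after it had taken in kinase genes.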

Additional observations from a re-analysis of the deposited data

How the results depend on the processing

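Of 504 recalculated values, 468 kept their call or moved by less than their interval, among them differences that include 0 and changed sign; the cause of the other changes was not tested, beyond the fewer peaks that a stricter limit leaves. With a Dam-only minimum of 4, 420 peaks were left. The differences were 1.97 points for distal promoters and 3.28 within 10 kb of a start site, both with an interval that includes 0. The shares were 0.0% in islands, 2.14% in shelves (matched 2.48%, difference -0.334) and 0.952% in simple repeats, the matched share with another peak within 1 kb was 21.5% and the gene length 43.6 kb. With a minimum of 5, 190 peaks were left, and the same differences were 2.82 and 2.04, also including 0. The shares were 0.0% in islands (matched 0.129%), 1.58% in shelves (matched 2.2%, difference -0.625), 1.05% in simple repeats, 1.05% in DNA transposons, 16.3% beyond 100 kb, 40.5% upstream and 0.0% with a neighbor of Dam-only height 3 or more. The matched share with another peak was 23.3% and the gene length 40.9 kb. With no upper limit the differences were 1.48 and 2.50, including 0.

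Keeping the lowest-coordinate peak per 1 kb run, chosen after seeing the data, gave matched shares of 8.59% with another peak and 0.0603% with a neighbor of Dam-only height 3 or more. The differences were -0.719, including 0, and 0.165, of opposite sign and including 0; both changes follow from the peaks this setting removes. Without matching, the SINE difference was 2.82 and the shelf difference 1.40, both excluding 0. The matched neighbor shares were 13% and 1.25%, and the difference for neighbors of Dam-only height 3 or more was -0.693, including 0. Matched on the difference of heights, the shelf difference was 1.34, excluding 0, the matched neighbor shares were 13.2% and 1.2%, and the difference for such neighbors was -0.640, including 0. No paired analysis was possible because each construct has 1 library, and for the same reason no library could be left out.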
